A study of Homo sapiens with 2 samples.

Results

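The genes described here are transcription factors that specify intestinal epithelium (CDX1, CDX2, HNF4A, GATA6, KLF4, KLF5 and ELF3) and VIL1, which encodes villin, an actin-bundling protein of the brush border. They were chosen by name, through every probe set to which the platform annotation gives one of these symbols and no other. The rule found 16 probe sets for 7 of the 8 genes, out of 41097 probe sets with a single symbol for 19775 genes. HNF4A was not analysed here. The cells were RKO, an established human colon cancer line, infected with a retrovirus whose hairpin targeted either BCLAF1-L, the long BCLAF1 form (sh-BCLAF1-L), or luciferase (sh-Luci). Both cultures were selected with puromycin, and only 1 BCLAF1 hairpin was used. Each group was measured on 1 array, so every value below is a single measurement, no p-value is given, and a difference between the hairpins and a difference between the arrays cannot be told apart.

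The gut epithelium is specified by a small network of transcription factors. The caudal homeobox factors CDX1 and CDX2 set hindgut identity and activate enterocyte genes, GATA6 and the nuclear receptor HNF4A act with them on absorptive genes, KLF5 is typical of dividing crypt cells and KLF4 of differentiated cells, and ELF3 is an ETS factor of differentiating epithelium. Loss of CDX2 and villin staining is known in poorly differentiated colon cancers.

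A probe set was compared on each array with the 40th percentile of all 54675 probe sets of that array, an intensity of 64.6 on the sh-BCLAF1-L array and of 62.8 on the sh-Luci array. The 60th percentile was 116 on the sh-BCLAF1-L array and 114 on the sh-Luci array, and the 80th was 305 on the sh-BCLAF1-L array and 302 on the sh-Luci array. Lying above the 40th percentile does not show that a transcript is present. For comparison, 30 markers of fibroblasts, endothelium, blood cells, stomach and liver, cell types not named in the labels, were measured. Read by their brightest probe sets, 14 of them lay above the 40th percentile on both arrays, or 46.7%. Of all genes read the same way, 71.6% did. Above the 60th percentile on both arrays were 6 of the 30, and 1, the collagen gene COL1A1, lay above the 80th (397 in sh-BCLAF1-L cells and 355 in sh-Luci cells). As a check of the hairpin, all 6 probe sets of BCLAF1 were lower in the sh-BCLAF1-L culture, by 1.43-fold to 2.96-fold. All 18 bacterial spike-in probe sets were higher on the sh-BCLAF1-L array, with a median log2 difference of 0.20, and the part of this shift in the differences below was not tested.

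CDX1, GATA6, KLF4 and KLF5 each had a probe set above the 60th percentile on both arrays, CDX2 and ELF3 each had 1 between the 40th percentile and the 60th on at least 1 array, and VIL1 had none above the 40th percentile on both. Of the 16 probe sets, 9 lay above the 40th percentile on both arrays (56.2%, against 62.3% of all probe sets with 1 symbol). Above the 60th percentile on both arrays were 4 (25%, against 43.6%), and above the 80th none (against 22.6%). No gene had more than 1 of these 4. By gene, 6 of 7 had a probe set above the 40th percentile on both arrays, against 71.6% of all genes by their brightest probe set. None of the 7 reached the 80th percentile, against 33.0% of all genes.

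**Figure D1:**
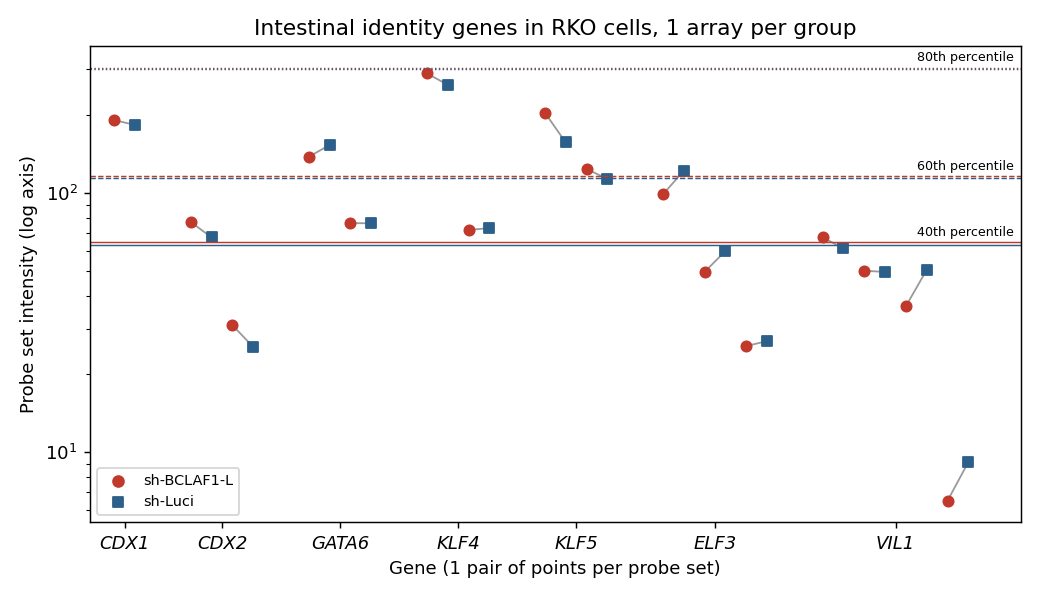
Intensity (log axis) of each probe set of the 7 measured genes, with the sh-BCLAF1-L array as red circles and the sh-Luci array as blue squares, and with each array's 40th, 60th and 80th percentiles as lines in its colour. The 4 probe sets above the 60th percentile on both arrays belong to CDX1, GATA6, KLF4 and KLF5, no probe set reaches the 80th, and VIL1 has no probe set above the 40th on both arrays.

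Probe sets differ in how strongly they bind their transcripts, so intensities of different probe sets do not rank genes, and each is set only against the percentiles of its array. CDX1, measured by the single probe set 206430_at, read 191 in sh-BCLAF1-L cells and 183 in sh-Luci cells, above the 60th percentile on both arrays. CDX2 was read by 2 probe sets. Its brighter one, 206387_at, read 77.3 in sh-BCLAF1-L cells and 67.4 in sh-Luci cells, just above the 40th percentile on each array. The other, 231606_at, read 30.9 in sh-BCLAF1-L cells and 25.5 in sh-Luci cells, below the 20th percentile of both arrays. Neither probe set of CDX2, the factor used clinically to mark colonic origin, reached the 60th percentile. The log2 differences were 0.06 for CDX1 and 0.20 and 0.27 for the CDX2 probe sets.

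The promoter of CDX2 is shown because CDX2 is the defining factor of the group. RefSeq (GRCh38.p14) promoters were matched for 5 of the 7 measured genes. They run from 250 bases before the gene's start to 50 after it, and CDX2's lies on the minus strand at chr13:27969266-27969565. Capitals mark letters that factors of the group are known to bind, searched on both strands. They are TTTAT (the CDX core, in 34.9% of 35116 promoters of this length), GATAA (the GATA core, in 22.7%) and CACCC (the KLF box, in 59.9%).
CDX2: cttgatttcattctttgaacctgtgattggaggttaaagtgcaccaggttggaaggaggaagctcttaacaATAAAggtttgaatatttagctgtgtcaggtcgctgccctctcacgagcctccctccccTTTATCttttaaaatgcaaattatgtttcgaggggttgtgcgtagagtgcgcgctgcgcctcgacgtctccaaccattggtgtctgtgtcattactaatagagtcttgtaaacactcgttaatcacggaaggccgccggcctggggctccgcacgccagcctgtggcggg
It held 2 matches to TTTAT and 1 to GATAA, which overlaps one of the TTTAT matches on the opposite strand, and none to CACCC. It contained 16 CpG dinucleotides, against a median of 14 (quartiles 4 and 28) over all promoters. A match describes the letters only, and methylation and binding were not measured.

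GATA6, a zinc-finger factor of endoderm and of the intestinal epithelium, had a probe set on each side of the 60th percentile. Probe set 210002_at read 138 in sh-BCLAF1-L cells and 153 in sh-Luci cells, a log2 difference of -0.15. Probe set 229282_at read 76.49 in sh-BCLAF1-L cells and 76.47 in sh-Luci cells. The brighter probe set was thus 1.11-fold lower in the sh-BCLAF1-L culture and the dimmer one was nearly equal.

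The Krüppel-like factors KLF4 and KLF5 were the members whose probe sets all lay above the 40th percentile, together with CDX1 and GATA6. KLF4 probe set 221841_s_at read 290 in sh-BCLAF1-L cells and 262 in sh-Luci cells, the values nearest to the 80th percentile in the group. Its other probe set, 220266_s_at, read 72.0 in sh-BCLAF1-L cells and 73.3 in sh-Luci cells, so the log2 differences were 0.14 and -0.03. KLF5 probe set 209211_at read 204 in sh-BCLAF1-L cells and 157 in sh-Luci cells, 1.30-fold higher in the knockdown. Probe set 209212_s_at read 124 in sh-BCLAF1-L cells, above that array's 60th percentile, and 113 in sh-Luci cells, just below it, a 1.09-fold difference. Both KLF5 probe sets were therefore higher in sh-BCLAF1-L cells, with log2 differences of 0.38 and 0.13.

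KLF5 had the highest log2 difference of the group and has 2 annotated starts in RefSeq, whose promoters are shown to display how unlike they are. Both lie on the plus strand, the upstream one at chr13:73054726-73055025 and the downstream one at chr13:73058755-73059054. Which start gave the measured transcripts was not tested.
KLF5 upstream: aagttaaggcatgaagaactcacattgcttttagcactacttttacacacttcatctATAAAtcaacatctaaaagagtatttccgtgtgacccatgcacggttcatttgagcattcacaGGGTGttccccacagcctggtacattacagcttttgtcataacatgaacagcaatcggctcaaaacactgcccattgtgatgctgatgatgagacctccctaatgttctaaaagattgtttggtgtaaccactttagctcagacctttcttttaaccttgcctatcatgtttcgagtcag
KLF5 downstream: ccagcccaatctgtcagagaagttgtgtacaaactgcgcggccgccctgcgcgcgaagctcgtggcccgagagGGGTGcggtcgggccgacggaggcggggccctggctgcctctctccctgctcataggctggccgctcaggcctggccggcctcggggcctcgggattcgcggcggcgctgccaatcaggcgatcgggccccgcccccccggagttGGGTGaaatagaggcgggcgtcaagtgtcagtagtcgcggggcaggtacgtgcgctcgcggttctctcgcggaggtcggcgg
The upstream promoter held 4 CpG dinucleotides, 1 match to TTTAT and 1 to CACCC. The downstream promoter held 37 CpG dinucleotides, more than or equal to 90.1% of all promoters, and 2 matches to CACCC. Neither held GATAA, and the downstream one held no TTTAT.

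ELF3 was lower in sh-BCLAF1-L cells on each of its 3 probe sets, all by less than 1.5-fold. Probe set 210827_s_at read 98.8 in sh-BCLAF1-L cells and 122 in sh-Luci cells, which puts it below the 60th percentile on the sh-BCLAF1-L array and above it on the sh-Luci array. Probe set 201510_at read 49.6 in sh-BCLAF1-L cells and 59.7 in sh-Luci cells, and probe set 229842_at read 25.7 in sh-BCLAF1-L cells and 26.8 in sh-Luci cells. These probe sets, both below the 40th percentile, had log2 differences of -0.26 and -0.06, beside -0.30 for the brightest.

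The ELF3 promoter is shown because ELF3 had the lowest log2 difference among probe sets above the 40th percentile on both arrays. It lies on the plus strand at chr1:202010337-202010636, with the same motifs in capitals.
ELF3: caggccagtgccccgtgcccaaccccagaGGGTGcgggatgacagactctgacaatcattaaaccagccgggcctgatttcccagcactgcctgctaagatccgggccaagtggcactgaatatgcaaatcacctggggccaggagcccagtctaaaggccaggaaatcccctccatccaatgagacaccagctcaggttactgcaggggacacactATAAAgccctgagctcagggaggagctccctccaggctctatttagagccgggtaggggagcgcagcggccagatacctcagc
It held 1 match to TTTAT and 1 to CACCC, both on the opposite strand, and none to GATAA. Its 7 CpG dinucleotides are fewer than the median promoter's 14. Promoters of KLF4 and GATA6, not printed, held 33 and 25 CpG dinucleotides.

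None of the 4 probe sets of VIL1 lay above the 40th percentile on both arrays. Probe set 205506_at read 67.5 in sh-BCLAF1-L cells, above the 40th percentile, and 61.1 in sh-Luci cells, below it. Probe set 228912_at read 50.1 in sh-BCLAF1-L cells and 49.6 in sh-Luci cells. The remaining probe sets, 1554943_at and 1554945_x_at, read 36.6 and 6.50 in sh-BCLAF1-L cells, against 50.6 and 9.16 in sh-Luci cells, in that order. The log2 differences were 0.14, 0.01, -0.46 and -0.44, a range of 0.60 between probe sets of 1 gene. No direction can be given for VIL1, since it changed with the probe set.

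No probe set of the group reached 1.5-fold in either direction. Among all probe sets with 1 symbol, 1.46% were at least 1.5-fold higher and 0.813% at least 1.5-fold lower in sh-BCLAF1-L cells, so 0 of 16 is near the background and is no result about the group. Above the 40th percentile on both arrays, these shares were 0.371% and 0.187%. With only the 9 probe sets above the 40th percentile on both arrays, the differences ran from -0.30 (ELF3) to 0.38 (KLF5), with 6 higher and 3 lower. Their median was 0.06, beside a median of 0.02 over all probe sets with 1 symbol. Over all 16, 9 were higher and 7 lower, a share of higher values of 56.2% beside 54.8% over all probe sets. Probe sets of 1 gene differed from each other by an SD of 0.15 on the log2 scale (6552 genes with several probe sets above the 40th percentile on both arrays), which does not cover the spread between cultures. Only the brightest KLF5 probe set lay outside the central 95% of probe sets of like brightness, from -0.34 to 0.38 between the 60th and 80th percentiles of mean intensity, and there by less than 0.01.

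**Figure D2:**
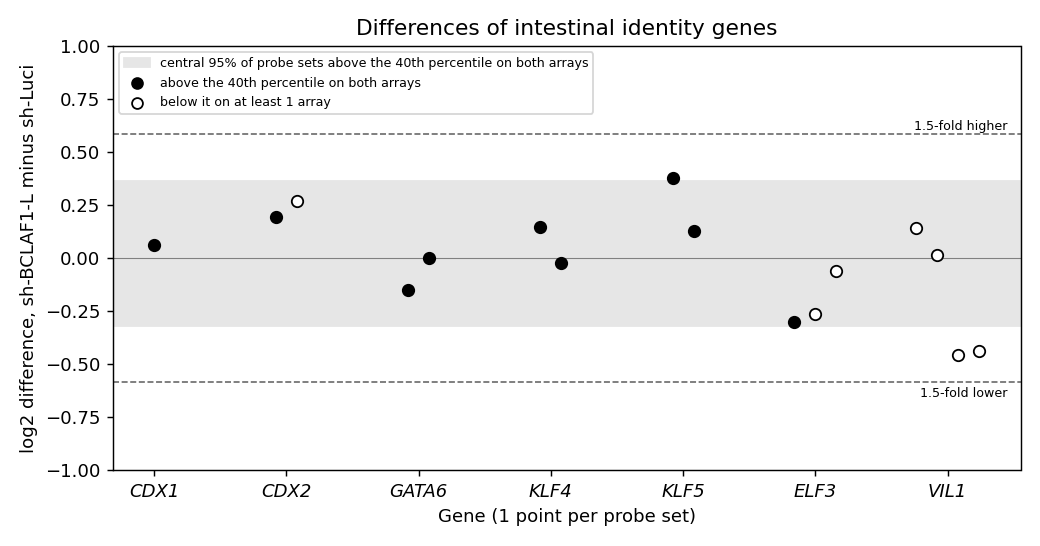
The log2 difference, sh-BCLAF1-L minus sh-Luci, of each probe set, filled where it lies above the 40th percentile on both arrays and open otherwise. The grey band is the central 95% of all probe sets above that level, from -0.32 to 0.36, and the dashed lines mark 1.5-fold. KLF5 at 0.38 and 2 dim VIL1 probe sets at -0.46 and -0.44 lie outside the band, and none passes 1.5-fold. The band does not apply to dim probe sets. Below the 40th percentile of mean intensity the central 95% ran from -0.53 to 0.65, and all 6 probe sets of the group in that class lay inside it.

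To place these genes among other gut transcripts, 7 lists were compared, with each gene read by its brightest probe set. For several genes named below, the remaining probe sets all lay below the 40th percentile on both arrays. These genes are FOXA1, HNF4G, CDHR5, USH1C, CA1, CEACAM7, FABP1, AGR2, REG4, EPHB3 and TPH1. The lists hold 104 genes, of which 95 were measured. Above the 40th percentile on both arrays were 57 of them, or 60%, against 71.6% of all genes, and above the 80th percentile 11, or 11.6%, against 33.0%. None of the 57 was at least 1.5-fold higher or lower in sh-BCLAF1-L cells, where 0.332% of all such genes were higher and 0.17% lower. Their median log2 difference was 0.01, with 30 higher and 27 lower. With no level required, 3 of the 95 passed 1.5-fold, all lower in sh-BCLAF1-L cells, where 0.592% of all genes were at least that much lower and 1.19% higher. They were the homeobox gene ISX, sucrase-isomaltase (SI) and the chloride exchanger SLC26A3, and each lay below the 40th percentile on both arrays.

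Among 19 other gut transcription factors, 13 lay above the 40th percentile on both arrays (68.4%, against 71.6% of all genes). TCF7L2, the transcriptional effector of Wnt signalling, read 998 in sh-BCLAF1-L cells and 981 in sh-Luci cells. FOXA1, a pioneer factor of endoderm, read 319 in sh-BCLAF1-L cells and 296 in sh-Luci cells. SPDEF, an ETS factor of goblet cells, read 395 in sh-BCLAF1-L cells and 417 in sh-Luci cells on the brightest of 5 probe sets, all of a type that can match several transcripts. CREB3L3, a membrane-bound factor of liver and intestine, read 304 in sh-BCLAF1-L cells and 342 in sh-Luci cells. HNF4G, the relative of HNF4A, read 140 in sh-BCLAF1-L cells and 135 in sh-Luci cells on its brighter probe set and 36.3 in sh-BCLAF1-L cells and 38.8 in sh-Luci cells on the other. The 4 genes of this list below the 40th percentile on both arrays were ISX, ATOH1, NR5A2 and ASCL2. ATOH1 read 44.6 in sh-BCLAF1-L cells and 44.1 in sh-Luci cells. FOXA3 and SOX9 lay above that percentile on the sh-BCLAF1-L array only. HNF4G and these genes were named after their values were seen.

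Of 18 measured brush border genes, 10 lay above the 40th percentile on both arrays (55.6%, against 71.6% of all genes) and 8 below it on both. Ezrin (EZR), which links the membrane to actin, read 989 in sh-BCLAF1-L cells and 976 in sh-Luci cells. The actin bundler PLS1 read 656 in sh-BCLAF1-L cells and 706 in sh-Luci cells, and the actin-capping protein EPS8 read 658 in sh-BCLAF1-L cells and 558 in sh-Luci cells. The peptidase DPP4 read 174 in sh-BCLAF1-L cells and 176 in sh-Luci cells. EZR and EPS8 are widely expressed. Genes more typical of enterocytes, named after their values were seen, lay on both sides of the 40th percentile. Above it on both arrays, the glucose transporter SLC5A1 read 156 in sh-BCLAF1-L cells and 159 in sh-Luci cells, and the microvillar protocadherin CDHR5 read 133 in sh-BCLAF1-L cells and 138 in sh-Luci cells. CDHR2, its partner, read 120 in sh-BCLAF1-L cells and 129 in sh-Luci cells, and the scaffold USH1C read 107 in sh-BCLAF1-L cells and 89.1 in sh-Luci cells. Below it on both arrays, the intestinal cadherin CDH17 read 47.2 in sh-BCLAF1-L cells and 46.7 in sh-Luci cells, and the disaccharidase SI read 7.28 in sh-BCLAF1-L cells and 12.5 in sh-Luci cells. The rest of the 8 brush border genes below it on both arrays were MYO1A, ANPEP, MEP1A, MEP1B, ALPI and SLC9A3.

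Of 20 absorptive colonocyte genes, 12 lay above the 40th percentile on both arrays (60%, against 71.6% of all genes), 2 of them above the 80th. These were the sulfate transporter SLC26A2, at 1317 in sh-BCLAF1-L cells and 1122 in sh-Luci cells, and carbonic anhydrase CA2, at 818 in sh-BCLAF1-L cells and 875 in sh-Luci cells. The lectin LGALS4 read 143 in sh-BCLAF1-L cells and 186 in sh-Luci cells, 1.29-fold lower, and CA1 read 151 in sh-BCLAF1-L cells and 152 in sh-Luci cells. The colonocyte keratin KRT20, at 14.6 in sh-BCLAF1-L cells and 15.6 in sh-Luci cells, and SLC26A3, at 6.14 in sh-BCLAF1-L cells and 10.15 in sh-Luci cells, lay below the 20th percentile on both arrays. The rest of the 8 genes below the 40th percentile on both arrays were CA4, MS4A12, CEACAM5, GUCY2C, FABP2 and PHGR1. The rest of the 12 above it on both were GPA33, AQP8, CEACAM1, CEACAM6, CEACAM7, GUCA2A, GUCA2B and FABP1. Of these, GPA33 read 147 in sh-BCLAF1-L cells and 119 in sh-Luci cells. KRT20, SLC26A3 and all these genes were named after their values were seen.

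Of 10 goblet cell genes, 6 lay above the 40th percentile on both arrays (60%, against 71.6% of all genes) and none above the 80th. AGR2, a disulfide isomerase needed for mucin folding, read 206 in sh-BCLAF1-L cells and 156 in sh-Luci cells, 1.32-fold higher, and its dimmer probe set differed by 0.30 on the log2 scale. The gel-forming mucin MUC2 read 93.9 in sh-BCLAF1-L cells and 87.5 in sh-Luci cells. The trefoil peptide TFF3 read 80.3 in sh-BCLAF1-L cells and 92.1 in sh-Luci cells, and the lectin REG4 read 88.4 in sh-BCLAF1-L cells and 82.4 in sh-Luci cells. CLCA1, ITLN1, TFF1 and SPINK4, named after their values were seen, lay below the 40th percentile on both arrays.

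Of 9 crypt base and stem cell genes, 3 lay above the 40th percentile on both arrays (33.3%, against 71.6% of all genes) and 5 below it on both. The Wnt target AXIN2 read 260 in sh-BCLAF1-L cells and 229 in sh-Luci cells. The ephrin receptor EPHB3 read 278 in sh-BCLAF1-L cells and 322 in sh-Luci cells, and the Wnt receptor ligase ZNRF3 read 172 in sh-BCLAF1-L cells and 198 in sh-Luci cells. Its relative RNF43 read 62.0 in sh-BCLAF1-L cells, below the 40th percentile of that array, and 63.6 in sh-Luci cells, above that of the other. The 5 genes below it on both arrays, named after their values were seen, were LGR5, ASCL2, OLFM4, SMOC2 and PROM1. LGR5 read 47.1 in sh-BCLAF1-L cells and 34.8 in sh-Luci cells on its brighter probe set. OLFM4 read 37.7 in sh-BCLAF1-L cells and 26.0 in sh-Luci cells.

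Of 7 enteroendocrine genes, 3 lay above the 40th percentile on both arrays (42.9%, against 71.6% of all genes). They were TPH1, the enzyme of serotonin synthesis, at 178 in sh-BCLAF1-L cells and 203 in sh-Luci cells, the granule protein CHGA, at 122 in sh-BCLAF1-L cells and 137 in sh-Luci cells, and the peptide INSL5, at 88.1 in sh-BCLAF1-L cells and 84.7 in sh-Luci cells. The dimmer TPH1 probe sets read 25.8 and 13.8 in sh-BCLAF1-L cells, against 35.6 and 16.7 in sh-Luci cells, in that order. The peptide hormone PYY read 53.0 in sh-BCLAF1-L cells and 73.4 in sh-Luci cells. CHGB, NEUROG3 and GCG, named after their values were seen, lay below the 40th percentile on both arrays.

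Of 13 general epithelial genes, 10 lay above the 40th percentile on both arrays (76.9%, against 71.6% of all genes) and 4 above the 80th. The tight junction scaffold TJP1 read 1293 in sh-BCLAF1-L cells and 1271 in sh-Luci cells. The adhesion molecule EPCAM read 472 in sh-BCLAF1-L cells and 477 in sh-Luci cells, and occludin (OCLN) read 414 in sh-BCLAF1-L cells and 456 in sh-Luci cells. Keratin 18 (KRT18) read 674 in sh-BCLAF1-L cells and 979 in sh-Luci cells, 1.45-fold lower and the lowest difference among the 57 genes. Its single probe set is of the type that can match several transcripts, so the transcript behind this difference is uncertain. The keratin KRT8, named after its values were seen, also has a single probe set of that type. KRT8 read 97.6 in sh-BCLAF1-L cells and 96.0 in sh-Luci cells, a log2 difference of 0.02. E-cadherin (CDH1), named after its values were seen, read 35.6 in sh-BCLAF1-L cells and 24.6 in sh-Luci cells on its brighter probe set, below the 40th percentile on both arrays. Its other probe set read 19.9 in sh-BCLAF1-L cells and 25.6 in sh-Luci cells, so no direction can be given.

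**Figure D3:**
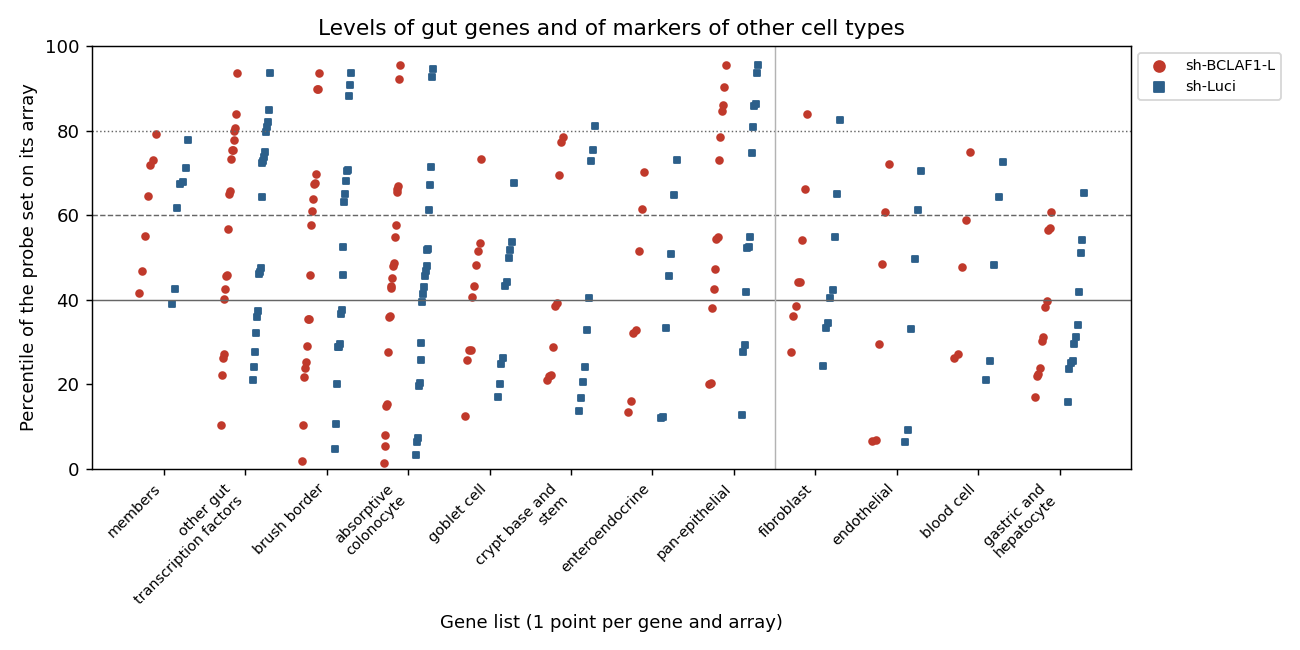
Percentile of each gene's brightest probe set on its array, by list, with the sh-BCLAF1-L array as red circles left of the sh-Luci array as blue squares, and with the 40th, 60th and 80th percentiles as lines. The intestinal identity genes (first column) lie below the 80th percentile on both arrays, and markers of cell types outside the colon epithelium (right of the vertical line) also reach above the 40th, with 14 of 30 above it on both arrays.

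**Figure D4:**
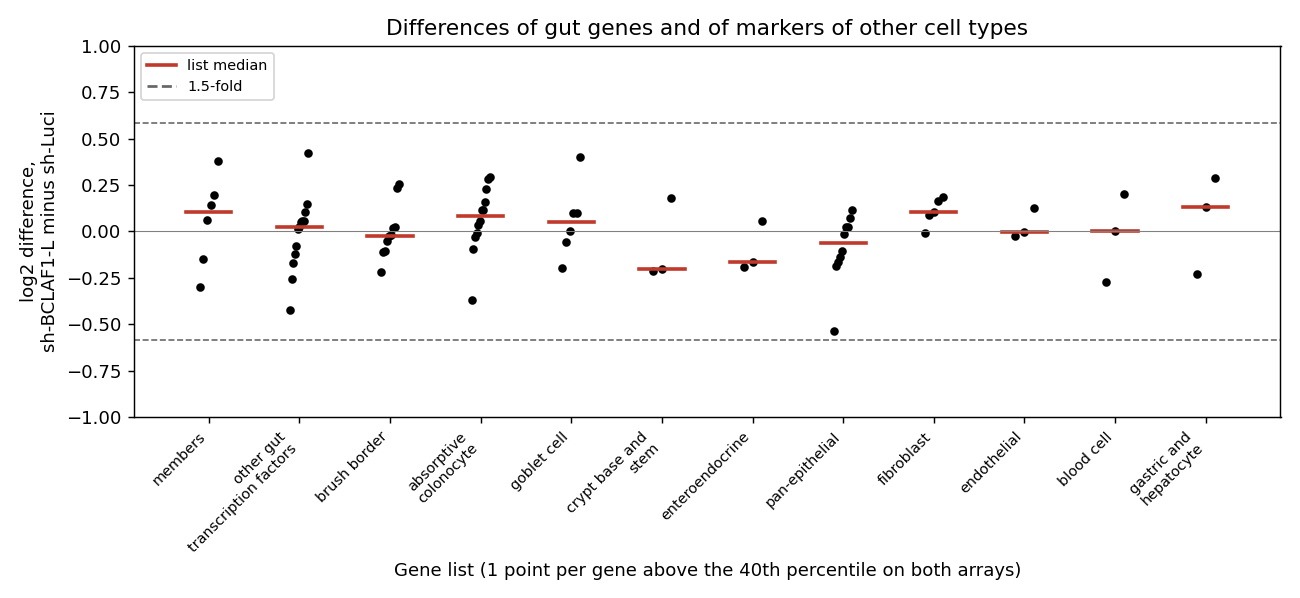
The log2 difference, sh-BCLAF1-L minus sh-Luci, of each listed gene above the 40th percentile on both arrays, with the list median in red and 1.5-fold as dashed lines. No listed gene passes 1.5-fold, and KRT18 in the epithelial list is lowest at -0.54.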

How the data were processed

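RNA from RKO cells with each hairpin was hybridised to 1 array per group. The authors deposited linear intensities, 1 per probe set and array. RMA is named per the submitters' processing notes, but its program, version and final scaling are not given in these sources. The lowest intensity was 1 on both arrays. The platform annotation gave 1 symbol to 41097 of 54675 probe sets, several to 1801 and none to 11777. Symbols were updated through a RefSeq gene table (GRCh38.p14).

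From the deposited intensities, log2(value + 1) differences were computed as sh-BCLAF1-L minus sh-Luci, with Python 3.11.15, pandas 2.3.3 and numpy 2.4.6. Folds are 2 to the power of that difference, so they understate the change of dim probe sets. A gene took its probe set with the highest mean. The number of arrays limits the precision, and with 1 array per group no test was made. The steps were checked on simulated data with planted changes larger than any seen in the listed genes. A planted decrease counted as right when it was merely not called higher. The check therefore says nothing about small differences, decreases or levels. The genes and lists were chosen with earlier results of these data known. Genes named were every member probe set, the 4 highest by mean percentile in each of 7 gut lists, up to 4 per list past 1.5-fold with a level above the 40th percentile on at least 1 array, and up to 3 genes per list of other cell types above the 80th percentile on both arrays. Alternatives were other levels, a pseudocount of 32, median or loess subtraction (span 0.3, statsmodels 0.14.6), 2-fold, the median over probe sets, and leaving out _s_at and _x_at probe sets.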

Additional observations from a re-analysis of the deposited data

How the results depend on the processing

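No paired analysis was possible because only a single array was made for each hairpin, which also leaves no replicate to omit. Of the 16 intestinal identity probe sets, 9 lay above the 40th percentile on both arrays and 4 above the 60th. None lay above the 80th, a level added after seeing the data. Shares of all probe sets with 1 symbol were 62.3%, 43.6% and 22.6%, in that order. At the 20th percentile the count was 13, and no share of all probe sets was computed. Of 95 genes of the other gut lists, 57 lay above the 40th percentile, 35 above the 60th and 11 above the 80th. Of all 19775 genes, 14153, 10867 and 6534 did, in that order. The gut list count at the 40th percentile was 45 without _s_at and _x_at probe sets, with no share of all genes computed. The count past 1.5-fold was 0 in each direction for the 16 probe sets in every alternative run. For the gut lists it was also 0, except that 3 genes were lower with no level required, a setting added after seeing the data. The gut lists' median difference lay between -0.05 and 0.02 and changed sign with the level, so no direction is given. Of 34 differences of the 7 genes under alternatives, 33 moved by less than the SD between probe sets of 1 gene. The exception was VIL1, which was -0.21 as the median over probe sets and 0.14 on its brightest. Many of the 34 could not move that far, so their count does not measure stability. Median subtraction shifts every gene by the same 0.03, and CDX1 has only 1 probe set. CDX1, CDX2, GATA6, KLF5 and VIL1 keep their brightest probe set when _s_at and _x_at probe sets are left out. KLF4 could not be computed without _s_at probe sets.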
